A study of Mus musculus with 6 samples.

Results

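The genes described here are the 7 epidermal growth factor (EGF) family ligands Areg, Ereg, Egf, Hbegf, Tgfa, Btc and Epgn and the 3 ERBB receptor genes Egfr, Erbb2 and Erbb3. They were taken by symbol from a table of 21534 genes, and each matched 1 row. The cultures were ileal organoids (enteroids) of wild-type C57Bl/6 mice, which are closed epithelial structures holding stem cells and their descendants. All 6 had spent 96 hours with 10 µM CHIR99021, a GSK3 inhibitor that turns on Wnt signalling and favours stem cells, in a growth medium whose composition is not given in the sources used here. There were 3 vehicle (DMSO) libraries and 3 libraries given 10 µM all-trans retinoic acid, each for 24 hours. Polyadenylated RNA was counted per gene, with 14919144 to 21833846 reads per library.

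EGF family ligands are made as membrane-anchored precursors that proteases release from the cell surface. They bind EGFR, and some also bind ERBB4; ERBB2 has no known ligand of its own and acts as a partner, while ERBB3 binds neuregulins and signals mainly through its partners. Active receptors switch on the RAS-ERK and PI3K-AKT pathways, and in the intestinal crypt EGF signalling drives division of stem and progenitor cells.

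The 4 ligand genes Hbegf, Areg, Btc and Ereg were higher with retinoic acid, by 2.06-fold, 1.57-fold, 1.53-fold and 1.45-fold. Tgfa, Egfr, Erbb2 and Erbb3 were expressed at levels well above detection and did not pass the test, and the Egf and Epgn genes gave few reads. Of the 9 genes that could be tested, 4 were called higher and none lower at an adjusted p under 0.05 (edgeR quasi-likelihood test, Benjamini-Hochberg over 13700 genes). Among all tested genes 5.37% were called higher and 4.09% lower. The members were chosen with earlier results of these data known. At an unadjusted p under 0.05, which 10.8% of all tested genes passed as higher and 10.8% as lower, Egfr and Erbb3 were added to the higher genes and again no tested member was lower. The median log2 fold change was 0.60 over the 6 tested ligands and 0.16 over the 3 receptors, against −0.01 over all tested genes. Whether the 3 libraries per treatment are separate mice, separate wells or repeat preparations is not stated in the labels, and the p-values reflect the scatter of these libraries, which may be technical. In bulk RNA, a change in the number of cells of a type cannot be told apart from a change in RNA per cell.

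The promoters of Areg, Btc and Tgfa are shown because the first and second genes moved by nearly the same fold while the third, a ligand gene with many reads, was not called. Each is the 250 bases before the gene's RefSeq start on its own strand, 5′ to 3′, in mm10 (RefSeq GRCm38.p6). Areg lies at chr5:91139349-91139598 on the plus strand, Btc at chr5:91402995-91403244 on the minus strand and Tgfa at chr6:86194972-86195221 on the plus strand. Capitals mark motif matches on either strand.
Areg: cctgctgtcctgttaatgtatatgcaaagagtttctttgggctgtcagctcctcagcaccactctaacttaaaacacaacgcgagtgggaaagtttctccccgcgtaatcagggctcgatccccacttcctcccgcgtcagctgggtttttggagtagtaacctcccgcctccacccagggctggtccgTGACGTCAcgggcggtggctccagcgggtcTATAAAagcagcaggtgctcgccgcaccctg
Btc: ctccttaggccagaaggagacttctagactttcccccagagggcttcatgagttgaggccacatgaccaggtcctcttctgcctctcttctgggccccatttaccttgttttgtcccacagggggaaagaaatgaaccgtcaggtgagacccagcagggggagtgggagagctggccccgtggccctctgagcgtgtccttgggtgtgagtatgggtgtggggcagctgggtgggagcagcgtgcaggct
Tgfa: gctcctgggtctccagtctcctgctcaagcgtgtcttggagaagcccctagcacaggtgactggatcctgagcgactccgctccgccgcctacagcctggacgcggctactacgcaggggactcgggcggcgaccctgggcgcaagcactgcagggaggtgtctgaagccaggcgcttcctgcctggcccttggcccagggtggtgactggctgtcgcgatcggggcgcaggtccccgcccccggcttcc

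The motifs searched were the TATA box (TATAAA), the cyclic AMP response element (TGACGTCA), the AP-1 site (TGANTCA), the retinoic acid receptor half-site (AGGTCA) and the TCF/LEF core (CTTTGA), no motif lying within another. The capitals in Areg are a cyclic AMP response element starting 61 bases, and a TATA box starting 31 bases, before the start. Of 32851 promoters of the same length, 1.55% held the former and 12.4% the latter. Btc and Tgfa held no match to any of the 5 in this window. The shares for the other motifs were 6.75% (AP-1 site), 14% (half-site) and 13.8% (TCF/LEF core). RefSeq promoters were searched for 7 of the 10 genes. No promoter of Ereg, Hbegf or Erbb3 was searched, and the search of members skipped chromosome 18, where Hbegf lies. Of the 7 genes, only Areg and Epgn had a promoter with a match, that of Epgn being a TATA box.

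Areg encodes amphiregulin, an EGFR ligand (ENSMUSG00000029378, mm10 chromosome 5, 91139615 to 91148432). It stood at 438, 426 and 404 CPM in vehicle libraries 1, 2 and 3 and at 682, 661 and 642 CPM in retinoic acid libraries 1, 2 and 3, where CPM is counts per 1000000 of the scaled library size. The groups did not overlap, and each had a narrow spread. The means were 423 ± 17 and 662 ± 19.9 CPM (SD, n = 3), a log2 fold change of 0.65 (SE 0.06, adjusted p = 3.37e-06). Any retinoic acid library exceeded any vehicle library by 1.47-fold to 1.69-fold.

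Hbegf encodes heparin-binding EGF-like growth factor, which binds EGFR and ERBB4 (ENSMUSG00000024486, mm10 chromosome 18, 36504929 to 36515805). Its level was 45.2, 42.2 and 40.7 CPM in vehicle libraries and 96.9, 87.7 and 78.7 CPM with retinoic acid. All treated libraries lay above all vehicle libraries, with the smallest ratio of any pair at 1.74. Its log2 fold change of 1.04 (SE 0.08, adjusted p = 1.94e-06) was the largest among the 9 tested members.

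Btc encodes betacellulin, another ligand of EGFR and ERBB4 (ENSMUSG00000082361, mm10 chromosome 5, 91357261 to 91402994). The vehicle libraries held 123, 111 and 100 CPM and the retinoic acid libraries 188, 163 and 161 CPM. The lowest treated library was 1.31-fold above the highest vehicle library. Btc had a log2 fold change of 0.61 (SE 0.08, adjusted p = 0.000258).

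Ereg encodes epiregulin, a ligand of EGFR and ERBB4 (ENSMUSG00000029377, mm10 chromosome 5, 91074617 to 91093649). Its values were 266, 226 and 223 CPM under vehicle and 372, 324 and 342 CPM with retinoic acid, again without overlap. The change was 0.54 on the log2 scale (SE 0.08, adjusted p = 0.000367). Library 1 was the highest of its group for each of the 4 called ligands in both treatments.

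**Figure D1:**
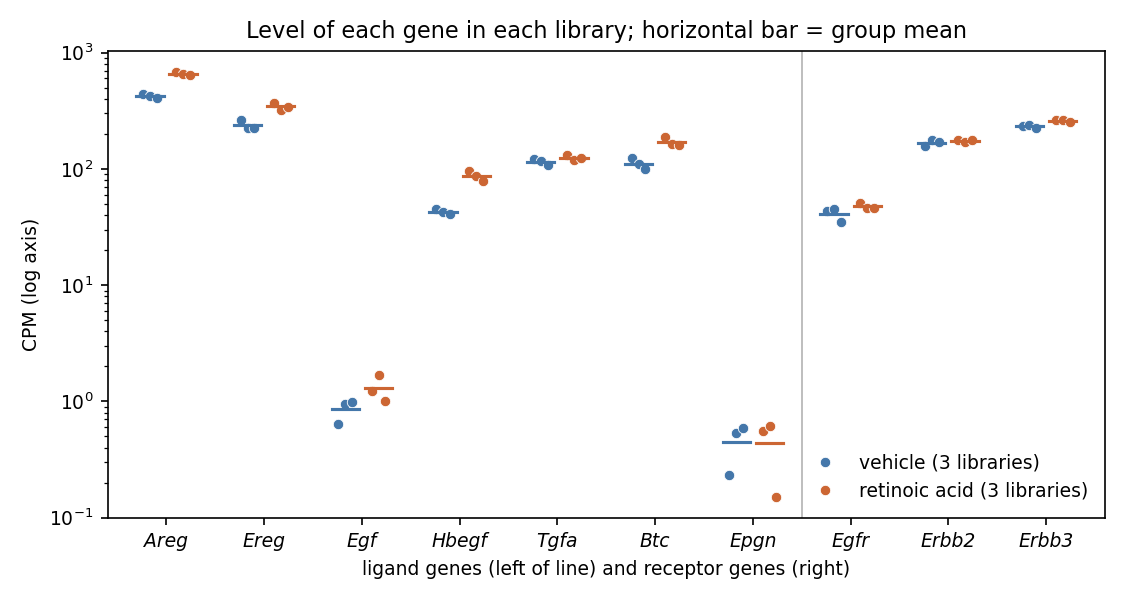
Level of each of the 10 genes in each of the 6 libraries, in CPM on a log axis, with the group mean as a bar. Areg, Ereg, Hbegf and Btc sit higher in every retinoic acid library than in any vehicle library, and Egf and Epgn lie near or below 1 CPM.

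Tgfa, the gene of transforming growth factor alpha, an EGFR ligand (ENSMUSG00000029999, mm10 chromosome 6, 86195251 to 86275449), was not called. Its values were 121, 116 and 108 CPM under vehicle and 131, 119 and 123 CPM with retinoic acid, so the groups overlapped (log2 fold change 0.12, SE 0.07, adjusted p = 0.33). The ratio of Tgfa CPM to Areg CPM within a library, on the log2 scale, was −1.86, −1.88 and −1.91 with vehicle and −2.38, −2.47 and −2.38 with retinoic acid. The ratio of Hbegf to Areg was −3.28, −3.34 and −3.31 with vehicle and −2.81, −2.91 and −3.03 with retinoic acid. Thus Tgfa fell behind Areg and Hbegf gained on it in every treated library, while the ratios of Ereg and Btc to Areg overlapped between the groups. The ratio of Areg to Egfr was 3.34, 3.23 and 3.53 with vehicle and 3.75, 3.84 and 3.8 with retinoic acid, also without overlap. That of Egfr to Erbb3 overlapped. These ratios were chosen after the values were seen. With 3 libraries against 3 an exact two-sided permutation p cannot go below 0.1, which each non-overlapping ratio reaches.

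Egf, the gene of the founding ligand (ENSMUSG00000028017, mm10 chromosome 3, 129677575 to 129755322), had 11, 16 and 15 reads in the vehicle libraries and 26, 25 and 20 in the retinoic acid libraries. That is 0.636, 0.948 and 0.987 CPM against 1.22, 1.69 and 1.01 CPM. The groups did not overlap, but the closest libraries differed by a ratio of 1.02 and the gene was not called (log2 fold change 0.59, SE 0.37, adjusted p = 0.405). With so few reads its SE of 0.37 compares with 0.06 to 0.08 for the called ligands, and a change of the size seen in Areg was not detectable at this depth.

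Epgn encodes epigen, an EGFR ligand (ENSMUSG00000035020, mm10 chromosome 5, 91027464 to 91035215). It had 4, 9 and 9 reads with vehicle and 12, 9 and 3 with retinoic acid, and did not pass the filter on low counts. Its values overlapped fully, at 0.231 to 0.592 CPM and 0.152 to 0.61 CPM. With that filter lifted its log2 fold change was −0.04 (SE 0.71, adjusted p = 0.988), an estimate too wide to show a change in either direction.

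Among the receptors, Egfr, the receptor of all 7 ligands (ENSMUSG00000020122, mm10 chromosome 11, 16752203 to 16918158), held 43.3, 45.5 and 34.9 CPM under vehicle and 50.8, 46.3 and 46.2 CPM with retinoic acid. The treated libraries all lay above the vehicle libraries, the nearest by a ratio of 1.02, and vehicle library 3 was well below the other two. The log2 fold change of 0.21 (SE 0.10) was not called (unadjusted p = 0.0459, adjusted p = 0.219). It was 0.11 (adjusted p = 0.573) without vehicle library 3 and 0.13 (adjusted p = 0.408) without library 3 of both groups. Erbb3 (ENSMUSG00000018166, mm10 chromosome 10, 128567523 to 128589652) held 236, 241 and 224 CPM under vehicle and 264, 261 and 255 CPM with retinoic acid. It too showed no overlap between groups and a small change, 0.16 on the log2 scale (SE 0.06, unadjusted p = 0.0147, adjusted p = 0.107), and was not called. Erbb2 (ENSMUSG00000062312, mm10 chromosome 11, 98412470 to 98437716) was at 157, 177 and 170 CPM under vehicle and 177, 171 and 177 CPM with retinoic acid, with overlapping groups (log2 fold change 0.06, SE 0.06, adjusted p = 0.657). Erbb2 overlaps Mien1 on the opposite strand, and whether counting used strand is not given in the sources used here, so some of its reads may be shared.

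**Figure D2:**
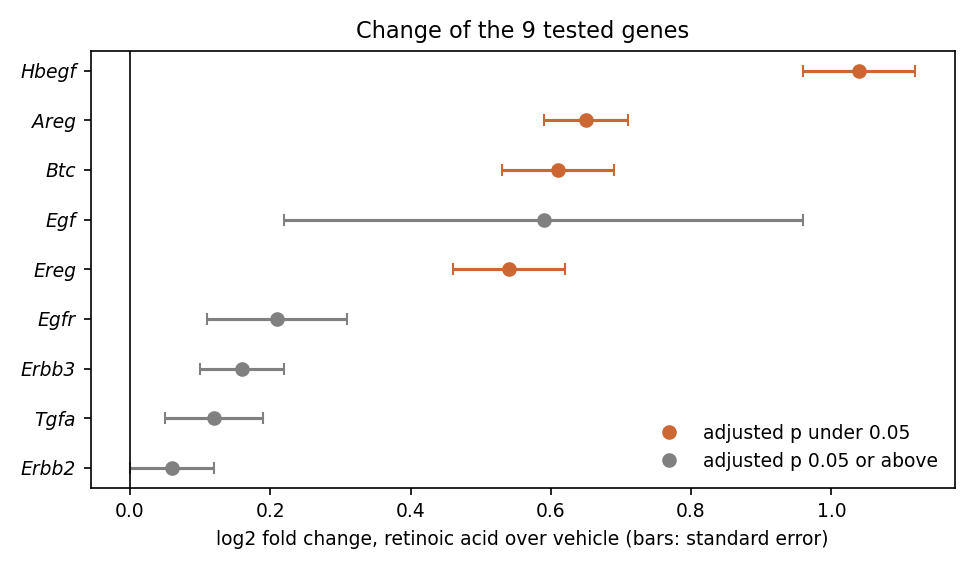
Log2 fold change of the 9 tested genes, retinoic acid over vehicle, with standard errors. The called genes Hbegf (1.04), Areg (0.65), Btc (0.61) and Ereg (0.54) have narrow bars, Egf (0.59) has the widest, and the 3 receptor genes and Tgfa lie between 0.06 and 0.21.

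All retinoic acid libraries exceeded all vehicle libraries for 7 of the 9 tested members, where 12.9% of all tested genes showed this. The members were Areg, Ereg, Hbegf, Btc, Egf, Egfr and Erbb3.

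To set the genes beside each other, CPM were divided by the length of the merged exons (GENCODE M21) in kilobases. Merged exons of all annotated transcripts can be longer than the transcript that is made, so these levels are approximate. With vehicle, Areg was highest at 348 ± 14 CPM per kb (SD, n = 3), followed by Ereg (57.7 ± 5.81), Erbb3 (38.8 ± 1.49), Erbb2 (32.3 ± 1.89), Btc (24.7 ± 2.54), Tgfa (17.6 ± 1.01), Hbegf (8.83 ± 0.477), Egfr (3.64 ± 0.491), Epgn (0.25 ± 0.107) and Egf (0.076 ± 0.0171). Each neighbouring pair in that order was separate in all 3 vehicle libraries. The last pair rests on few reads and on exon length, since in CPM Egf (vehicle mean 0.857) was above Epgn (0.452). With retinoic acid Btc (37.8 ± 3.36 CPM per kb) stood above Erbb2 (33.6 ± 0.6), in a reversal of their vehicle order. Hbegf (18.2 ± 1.88) came level with Tgfa (19.2 ± 0.918), and the libraries of that pair overlapped, as did those of Epgn and Egf. Both shifts depend on the exon lengths used. In CPM with retinoic acid, Btc (171 ± 15.2) and Erbb2 (175 ± 3.13) overlapped, and Hbegf (87.8 ± 9.1) stayed below Tgfa (124 ± 5.96). Areg made up 75% to 76.8% of the summed per-kb level of the 7 ligands in vehicle libraries and 76.5% to 78.2% in retinoic acid libraries, ranges that overlapped. The share of Hbegf lay between 1.91% and 1.95% with vehicle and between 2.39% and 2.74% with retinoic acid. That of Tgfa lay between 3.82% and 3.89% with vehicle and between 2.65% and 2.79% with retinoic acid. The summed level of the ligands was 435 to 480 CPM per kb with vehicle and 682 to 734 with retinoic acid, and that of the 3 receptors 73 to 78 and 80.3 to 82.4.

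Of the 10 genes, 4 are neighbours on chromosome 5, in the order Epgn, Ereg, Areg and Btc over 376 kb, and the table has no other row between them. Gaps of 39, 46 and 209 kb separate them, and Btc is read from the opposite strand. The called genes Ereg, Areg and Btc adjoin one another, and Epgn at the edge of the cluster gave few reads under both treatments. Within 500 kb on either side, a distance chosen after the values were seen, the table has 14 rows, of which 7 were tested. Beyond Epgn, Mthfd2l (log2 fold change −0.13, SE 0.16, adjusted p = 0.708), the chemokine gene Cxcl1 (0.29, SE 0.54, adjusted p = 0.824) and Rassf6 (0.11, SE 0.10, adjusted p = 0.594) were not called. Beyond Btc, Parm1 was called higher. It had 168 ± 27.9 CPM in the vehicle group and 300 ± 51.1 CPM in the treated group (SD, n = 3), a log2 fold change of 0.84 (SE 0.12, adjusted p = 0.000489). Hbegf, the ligand with the largest change, lies outside the cluster.

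**Figure D3:**
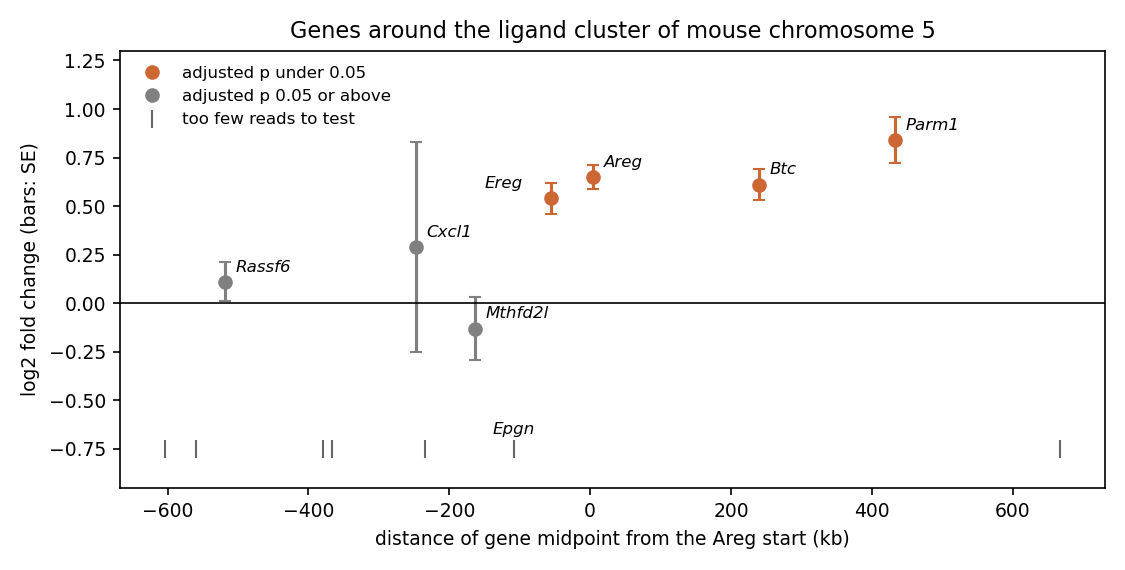
Log2 fold change, with standard errors, of the genes around the chromosome 5 ligands by distance of the gene midpoint from the Areg start, in kb. Ereg, Areg, Btc and Parm1 are called higher, the 3 tested genes to the left of Epgn are not, and ticks mark genes with too few reads to test.

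The profile over the 6 libraries was also compared with that of 9777 other genes of at least 10 CPM. The highest Pearson correlation of log2 CPM with Areg was that of Idh1 (0.9998), a cytosolic isocitrate dehydrogenase. The highest with Hbegf were those of Gfpt1 (0.9992), an enzyme of the hexosamine pathway, and Gclm (0.9983), a subunit of the enzyme that starts glutathione synthesis. Those with Ereg were Etv6 (0.9970) and Grasp (0.9967), and those with Btc Fam210a (0.9944) and Abcc4 (0.9932). Among the members, Areg correlated with Hbegf at 0.9954, with Btc at 0.9735, with Ereg at 0.9628 and with the receptor gene Erbb3, which was not called, at 0.9481. Its correlations with Tgfa (0.7660), Egfr (0.7362), Egf (0.6817) and Erbb2 (0.4512) were smaller, an order in which ligands and receptors are mixed. These are descriptions over 6 libraries that share a treatment difference, and no test was made of them.

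The remaining genes of the receptor family were scarce. Erbb4, the fourth receptor, had 13 reads over all 6 libraries. The neuregulin genes Nrg1 and Nrg2, whose products bind ERBB3 and ERBB4, had 12 and 6, and the neuregulin gene Nrg3 had 17. Nrg4, an ERBB4 ligand, was the 1 tested gene of the 5, with a mean of 7.06 ± 0.503 CPM in vehicle libraries and of 6.52 ± 1.02 CPM in treated ones (SD, n = 3) and a log2 fold change of −0.12 (SE 0.17, adjusted p = 0.748).

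Genes that release the ligands did not pass the test, with 0 of 7 called by edgeR or DESeq2 and 1, Adam9, higher at an unadjusted p under 0.05, a share near that of all tested genes (10.8%). Adam17, the main sheddase of Areg, Ereg, Hbegf and Tgfa, had 56.8 ± 0.839 and 60.8 ± 1.56 CPM (log2 fold change 0.10, SE 0.07, adjusted p = 0.451), and Adam10, the sheddase of Btc and Egf, 230 ± 12.8 and 243 ± 15.9 CPM (0.07, SE 0.07, adjusted p = 0.581). The list's median log2 fold change was 0.10. Frmd8, which stabilises the sheddase complex, was called lower when retinoic acid library 3 was left out (adjusted p = 0.027; 0.341 with all libraries).

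Of 9 genes whose products restrain the receptors, 1 was higher and none lower, where 5.37% of all tested genes were higher and 4.09% lower. The median log2 fold change was −0.01. The higher gene was Errfi1, also called Mig6, an inhibitor that binds the EGFR kinase and is itself induced by EGFR signalling. It stood at 243, 222 and 207 CPM under vehicle and 353, 347 and 313 CPM with retinoic acid, a separation without overlap (log2 fold change 0.59, SE 0.07, adjusted p = 8.11e-05). Lrig1, a transmembrane inhibitor of ERBB receptors that also marks crypt stem cells, was not called at 264 ± 10.8 and 252 ± 7.65 CPM (adjusted p = 0.597). Socs5, an inhibitor that promotes EGFR breakdown, had a log2 fold change of −0.24 and an adjusted p of 0.0667, which became 0.0295 without retinoic acid library 3. It was also called lower without library 3 of both groups (adjusted p = 0.0324) and with the replicate number as a block (adjusted p = 0.0232).

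In the relay from receptor to ERK and AKT, 1 of 21 genes was higher and 1 lower, with a median log2 fold change of 0.03. These counts are near the shares of all tested genes, 5.37% higher and 4.09% lower. The adaptor gene Gab1 (log2 fold change −0.22, adjusted p = 0.117) was a second lower call without retinoic acid library 3 (adjusted p = 0.0404). It was also called lower with the replicate number as a block (adjusted p = 0.0362), but not without library 3 of both groups (adjusted p = 0.072). Pik3r1, a regulatory subunit of PI3K, fell by 0.36 on the log2 scale (SE 0.06, adjusted p = 0.00179). Map2k1, which encodes the ERK kinase MEK1, was 1.18-fold higher (adjusted p = 0.0317), a call lost when vehicle library 1 or 3, or retinoic acid library 1 or 2, was left out, with an adjusted p of at most 0.13.

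Genes known as targets or feedback inhibitors of ERK signalling were called higher in 8 of 20 cases and lower in none by edgeR or DESeq2, with a median log2 fold change of 0.22 and 16 of 20 values above 0. At an unadjusted p under 0.05, 9 were higher and 0 lower. The list was chosen with earlier results of these data known. Among all tested genes the shares that were higher were the 5.37% (adjusted) and 10.8% (unadjusted) given above, and no test of the list as a whole was made. By smallest p these began with Epha2, an ephrin receptor, at 323, 311 and 332 CPM under vehicle and 434, 402 and 432 CPM with retinoic acid (log2 fold change 0.39, SE 0.06, adjusted p = 0.000487). Phlda1 followed at 755, 751 and 783 against 949, 972 and 971 CPM (0.34, SE 0.05, adjusted p = 0.000692). Dusp6, the phosphatase that switches off ERK, held 84.7, 90 and 80.4 against 112, 116 and 114 CPM (0.42, SE 0.06, adjusted p = 0.000771). Spry1, an inhibitor of receptor tyrosine kinase signalling, held 47.9, 48.6 and 45.6 against 68.2, 64 and 61 CPM (0.44, SE 0.07, adjusted p = 0.0014). In each of these genes the lowest treated library lay above the highest vehicle library, as in 12.9% of all tested genes. They were picked by smallest p, so that separation is not separate evidence of a change. The other 4, named after their values were seen, were Dusp5 (1.33-fold), Egr1 (1.31-fold), Spry2 (1.25-fold) and Fos (1.26-fold); the call of Fos was lost in the fits that left out vehicle library 2 or retinoic acid library 1, where its adjusted p reached 0.0874. Other ERK-linked genes of the list were not called, among them Etv4 (log2 fold change −0.18, adjusted p = 0.249), Etv5 (−0.06, adjusted p = 0.796), Dusp4 (0.10, adjusted p = 0.496), Myc (0.03, adjusted p = 0.825) and the cyclin gene Ccnd1 (0.00, adjusted p = 0.984).

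**Figure D4:**
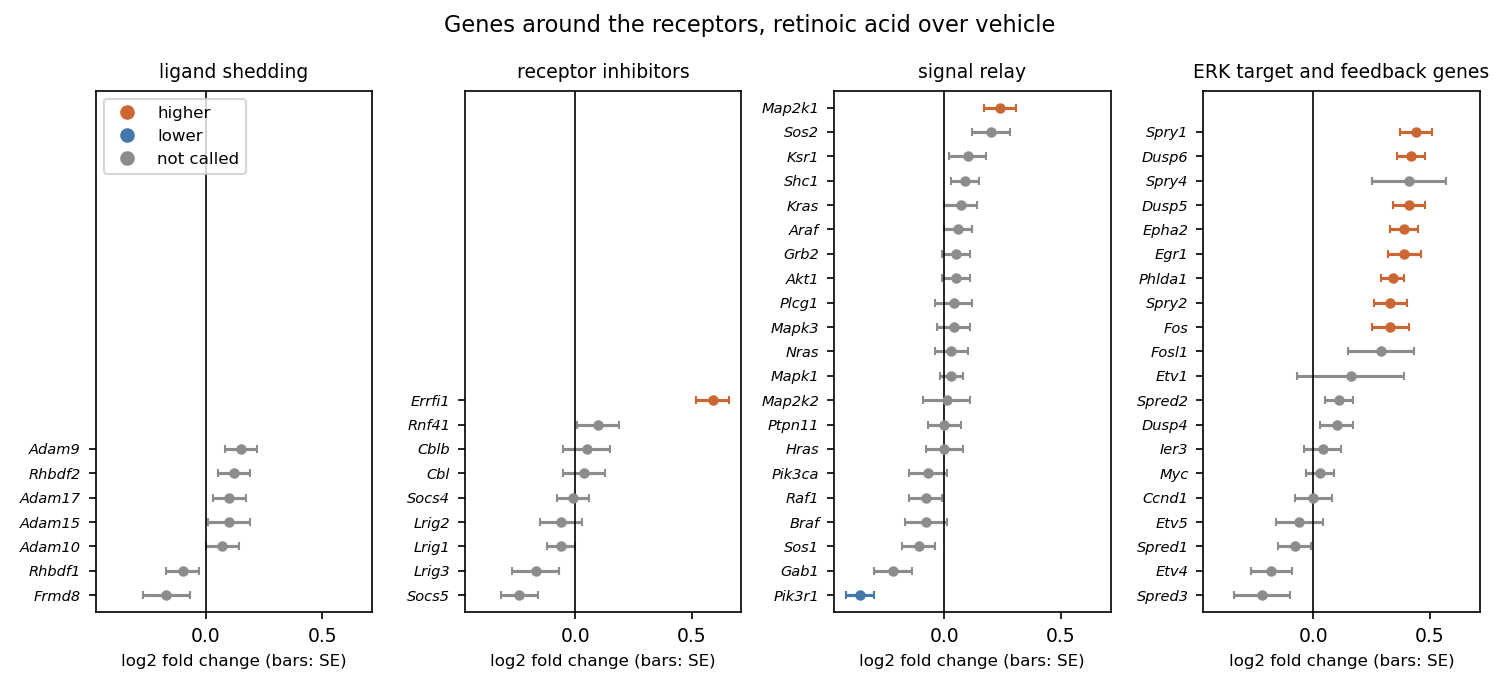
Log2 fold change, with standard errors, of the tested genes of 4 lists: ligand shedding (7), receptor inhibitors (9), signal relay (21) and ERK target and feedback genes (20). Called genes are coloured; 8 of the last list are higher, while the first list has none.

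The 7 epithelial cell type markers summed to 10795 to 11476 CPM under vehicle and 10648 to 11609 CPM with retinoic acid, and none was called. Of 5 stem cell markers 3 were lower (Lgr5, Olfm4 and Smoc2), and the sum of the list went from between 599 and 665 to between 427 and 451 CPM. For the marker lists too, the shares of all tested genes were 5.37% higher and 4.09% lower. Paneth cell markers, 1 higher (Mmp7) and 1 lower (Ang4) of 6 tested, summed to 5421 to 5852 and 4931 to 5230 CPM. Their median log2 fold change was −0.19. At an unadjusted p under 0.05 (edgeR), 1 was higher and 4 were lower, where 10.8% of all tested genes were higher and 10.8% lower. Most of the Paneth sum was Lyz1 (means 3789 and 3382 CPM), which was not called. Enterocyte markers, 2 higher and 1 lower of 7, summed to 493 to 581 and 378 to 608 CPM. Most of that sum was Sis (means 383 and 291 CPM), which was not called, so it hides opposite changes. Fabp1 went from a mean of 0.692 to 18.3 CPM (26.3-fold, adjusted p = 5.24e-08) and Fabp2 was 1.52-fold higher, while Alpi was lower (0.564-fold). Without retinoic acid library 3 the lower calls were 3 in each of the Paneth and enterocyte lists, and DESeq2 and limma-voom each gave 2 lower Paneth markers. The part of these shifts in the ligand changes was not tested. Markers of mesenchyme (5.43 to 5.51 and 3.09 to 3.99 CPM), endothelium (2.72 to 5.46 and 2.3 to 3.8) and glia and neurons (4.67 to 5.57 and 3.25 to 5) were at low sums, as were immune markers (5.95 to 9.24 and 9.5 to 12.1), where Cd68 was called higher and the pan-leukocyte gene Ptprc had 2 reads in all. The call of Cd68 (adjusted p = 0.0216) was lost when vehicle library 1 or 2, or retinoic acid library 1 or 2, was left out, with an adjusted p of at most 0.107.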

How the data were processed

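Per the labels' protocols, libraries were polyA-selected and directional. The deposited table holds raw read counts per gene for 6 libraries. It also holds the authors' DESeq results, per the file headers: a p-value, its FDR, and a log2 fold change with and without shrinkage. Reads were aligned to mm10, per the submitters' processing notes; the sources used here do not name the aligner, annotation or strand setting. In the authors' deposited table Areg, Ereg, Hbegf and Btc have an FDR under 0.05 and log2 fold changes of 0.65, 0.54, 1.05 and 0.62.

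Columns were matched to samples by title. Replicate pairs differed by a chi-square of 4.09 to 11.1 per gene, so none was taken as a second count of the same library. These values cannot tell separate mice from separate wells or repeat preparations. On the second principal component (20% of variance) library 3 of each group stood apart. Counts were fitted with edgeR 4.0.16 in R 4.3.3: filterByExpr at its defaults (13700 genes kept), TMM scaling (factors 0.978 to 1.02), glmQLFit and glmQLFTest with treatment as the only term, two-sided, Benjamini-Hochberg adjustment, threshold 0.05. SE is the log2 fold change divided by the square root of F. The steps were also run on simulated data, and the outcome of that run is not given here. Members, gene lists and alternatives were chosen with earlier results of these data known. All members are named, with up to 4 called genes per related list by smallest p and all genes of the small ERBB list. For each called member the rule takes the 2 genes most like it, leaving out predicted and unnamed gene models. Other names were chosen after their values were seen. A gene that this rule takes is not reported here. Alternatives were DESeq2 size factors, 2 other filters, DESeq2 1.42.0, limma-voom (limma 3.58.1), a replicate block, and leaving out libraries.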

Additional observations from a re-analysis of the deposited data

How the results depend on the processing

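The 4 ligand calls kept their direction and stayed called under all 13 alternatives: 0.62 to 0.67 on the log2 scale for Areg, 0.96 to 1.11 for Hbegf, 0.54 to 0.69 for Btc and 0.48 to 0.62 for Ereg, with a largest adjusted p of 0.00532. No tested member was called lower under any alternative, and none of the 9 changed sign. With the replicate number as a block 5 members were called higher, as Erbb3 (log2 fold change 0.16) then had an adjusted p of 0.0218; over its alternatives that p ran from 0.0218 to 0.322. Same-numbered libraries deviated together with correlations of 0.128, 0.0975 and 0.257, and each library correlated best with its own number, a hint from the data only, since the labels do not say that numbers pair samples. The block gave 3 lower related pathway genes in place of 1, and 1224 higher and 1052 lower genes in all in place of 736 and 560. With 1 library left out in turn, 1 to 4 related pathway genes were lower, 443 to 978 genes in all were higher and 289 to 787 lower. The 4 lower related genes came without retinoic acid library 3; without library 3 of both groups there were 2. The cause of these shifts was not tested. Few reads limit Egf and Epgn.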
